A study of Mus musculus with 8 samples.

Results

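The transcripts described here are those of 49 genes that build and time DNA replication, chosen by name and all found among the 19896 genes that both deposited tables list. They cover the replicative helicase and its loaders, the polymerases with their clamp and clamp loader, the single-strand binding protein, ribonucleotide reductase, and the kinases and cyclins that start S phase. Poly(A) RNA was measured in mouse E14 cells, an established embryonic stem cell line, in 8 libraries that form 4 groups of 2. Cct5 KD and Cct7 KD cells carried pLKO-Tet on-Puro, a lentiviral vector with a doxycycline-inducible short hairpin RNA, directed against Cct5 or Cct7. Cct5 KD Ctr and Cct7 KD Ctr cells carried the same vector without a hairpin. Cct5 and Cct7 encode subunits of the chaperonin CCT, which folds actin, tubulin and other cytosolic proteins, and the study asked whether they restrain the passage of stem cells towards totipotency. All groups, controls included, had 14 days of puromycin selection (0.5 µg/ml) and 2 days of doxycycline (2 µg/ml) and grew mainly in serum with LIF. Clones were picked after selection, and the sources used here do not give how many stand behind each line. Nothing there says that the 2 libraries of a group came from separate cultures, so p-values measure only the spread between these libraries, which may be technical.

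A chromosome is copied from many origins. In G1 the origin recognition complex (ORC), with Cdc6 and Cdt1, loads the ring of Mcm2 to Mcm7 onto DNA, and geminin blocks Cdt1 once S phase has begun so that no origin is loaded again. The kinases Cdc7-Dbf4 and cyclin E-Cdk2 then turn the ring into an active helicase with Cdc45 and GINS, and polymerase alpha-primase, polymerases delta and epsilon, PCNA and its loader RFC copy the strands. Many of these genes are classical targets of E2F transcription factors, and mouse embryonic stem cells are known for short gap phases and high cyclin E.

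The promoters of the members are shown first. Their letters were not used to choose the genes, but many of these genes are known E2F targets. A raised share of E2F letters is therefore no independent finding. The comparison is with all promoter windows, not with ones matched for expression or base content. RefSeq promoters on GRCm38.p6, each from 250 bases before to 50 bases after a transcription start, were at hand for 40 of the 49 genes, in 49 windows. The letters TTTCCCGC, TTTCGCGC, TTTGCCGC or TTTGGCGC, the core of the E2F motif, stood on either strand in 16 of the 49 windows (32.7%), against 2.26% of all 32851 promoter windows. The pentamer CCAAT stood in 57.1% of the member windows and 37.4% of all. TTTGAA, the letters of the CHR element of late cell cycle genes, stood in 16.3% of the member windows and 17.9% of all. The E2F letters can be read in the following stretches of 70 bases, given on the strand of the gene, where capitals mark the match. In Mcm5 and Mcm6 the capitals hold 2 overlapping matches on opposite strands.
Mcm5 (chr8:75109327-75109396, plus strand): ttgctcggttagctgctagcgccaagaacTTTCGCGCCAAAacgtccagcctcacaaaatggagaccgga
Mcm6 (chr1:128359775-128359844, minus strand): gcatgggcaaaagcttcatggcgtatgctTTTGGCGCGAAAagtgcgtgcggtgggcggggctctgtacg
Orc1 (chr4:108579384-108579453, plus strand): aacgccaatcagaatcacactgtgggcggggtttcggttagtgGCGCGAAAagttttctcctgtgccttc
Cdc6 (chr11:98907982-98908051, plus strand): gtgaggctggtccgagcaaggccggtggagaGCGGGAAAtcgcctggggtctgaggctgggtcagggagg
Gins3 (chr8:95633487-95633556, plus strand): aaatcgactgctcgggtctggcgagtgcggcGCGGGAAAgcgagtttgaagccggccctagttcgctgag
Cdk2 (chr10:128705153-128705222, minus strand): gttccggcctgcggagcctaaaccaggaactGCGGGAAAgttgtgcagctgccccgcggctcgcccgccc

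In the deposited values the hairpin targets followed the labels. Cct7 stood at 269 and 280 FPKM (fragments per kilobase of transcript, normalized to sequencing depth) in its controls and at 14.4 and 17.8 in Cct7 KD, and Cct5 at 368 and 367 in its controls and at 70.8 and 73.4 in Cct5 KD. Fragment totals estimated from the values were 18900000 to 54800000, and none could be estimated for Cct5 KD. The summed FPKM was 744177 and 745912 in Cct5 KD but 471748 to 496748 in the other 6 libraries. The Cct5 KD values are not independent of Cct7 KD: each equals 1.125 times the value in the Cct7 KD library with that number plus a remainder, and this multiple made up 71.3% of the Cct5 KD total. The remainder, whose low values were whole fragments for 99.0% and 99.1% of the genes used, was therefore compared with Cct5 KD Ctr as well, and none of the 49 members had a negative one. The target Cct5 did: it stood at 280 and 271 FPKM in Cct7 KD, above its 70.8 and 73.4 in Cct5 KD. Cct5 is thus among the 15 genes with a negative remainder and was left out of that comparison. The remainder therefore has no check by its hairpin target, and the origin of the relation is not known. All 9 stem cell markers were detected in every library, but their sum was 5543 and 5752 FPKM in Cct7 KD Ctr against 1077 and 1088 in Cct7 KD, and 5670 and 5606 in Cct5 KD Ctr against 2404 and 2409 in Cct5 KD. In Cct7 KD Ctr and Cct7 KD, 5 trophoblast markers summed to 51.9 and 52.3 against 216 and 219 FPKM, a rise carried by Krt8 and Krt18: Tfap2c went from 27.1 and 26.1 to 10.5 and 11.5, and Gata3 and Elf5 stayed under 1. The 6 primitive endoderm markers summed to 5.23 and 5.36 against 9.33 and 10.2, and the 4 fibroblast markers used, of 8 listed, to 10.3 and 11.1 against 11.8 and 12.3; no marker used was at 0. Within the fibroblast sum Thy1 went from 8.07 and 8.80 to 4.91 and 5.13 and Pdgfrb from 1.39 and 1.51 to 5.38 and 5.81, while Col1a1 and Col1a2 stayed under 1. The part of these shifts in the replication results was not tested, and in bulk RNA fewer cells of a type and less RNA per cell cannot be told apart.

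In Cct7 KD most replication transcripts were lower than in the control, and a small set was higher. With FPKM as deposited, 30 of the 49 members fell, 13 rose and 6 did not pass the test, while of all 13588 genes tested 32% fell and 49.3% rose (limma on log2(FPKM + 1), adjusted p under 0.05). The median change was -0.28 over the members and 0.15 over all genes. Because the median gene had moved, libraries were also scaled by median of ratios, which sets the typical gene equal between libraries; this is called the scaled change below. After it 39 members fell, 6 rose and 4 did not pass, against 44% and 37.1% of 13546 genes, and the medians were -0.53 and -0.07. Libraries were also scaled to a common FPKM total. Under all 3 treatments of the values 28 members fell and the same 6 rose, namely Mcm9, Orc6, Gins3, Rfc4, Rpa3 and Ccne2, beside 29.4% and 37.2% of the 13517 genes tested in all 3. A fall of at least 2-fold passed for 6 members as deposited and 9 scaled, against 6.6% and 10.4% of all genes; a rise of that size passed for Ccne2 alone, against 13.5% and 9.56%. Both Cct7 KD libraries lay below both controls for 31 members, above both for 15, and between or across them for 3, beside 36.5% of all genes below and 54.1% above.

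**Figure D1:**
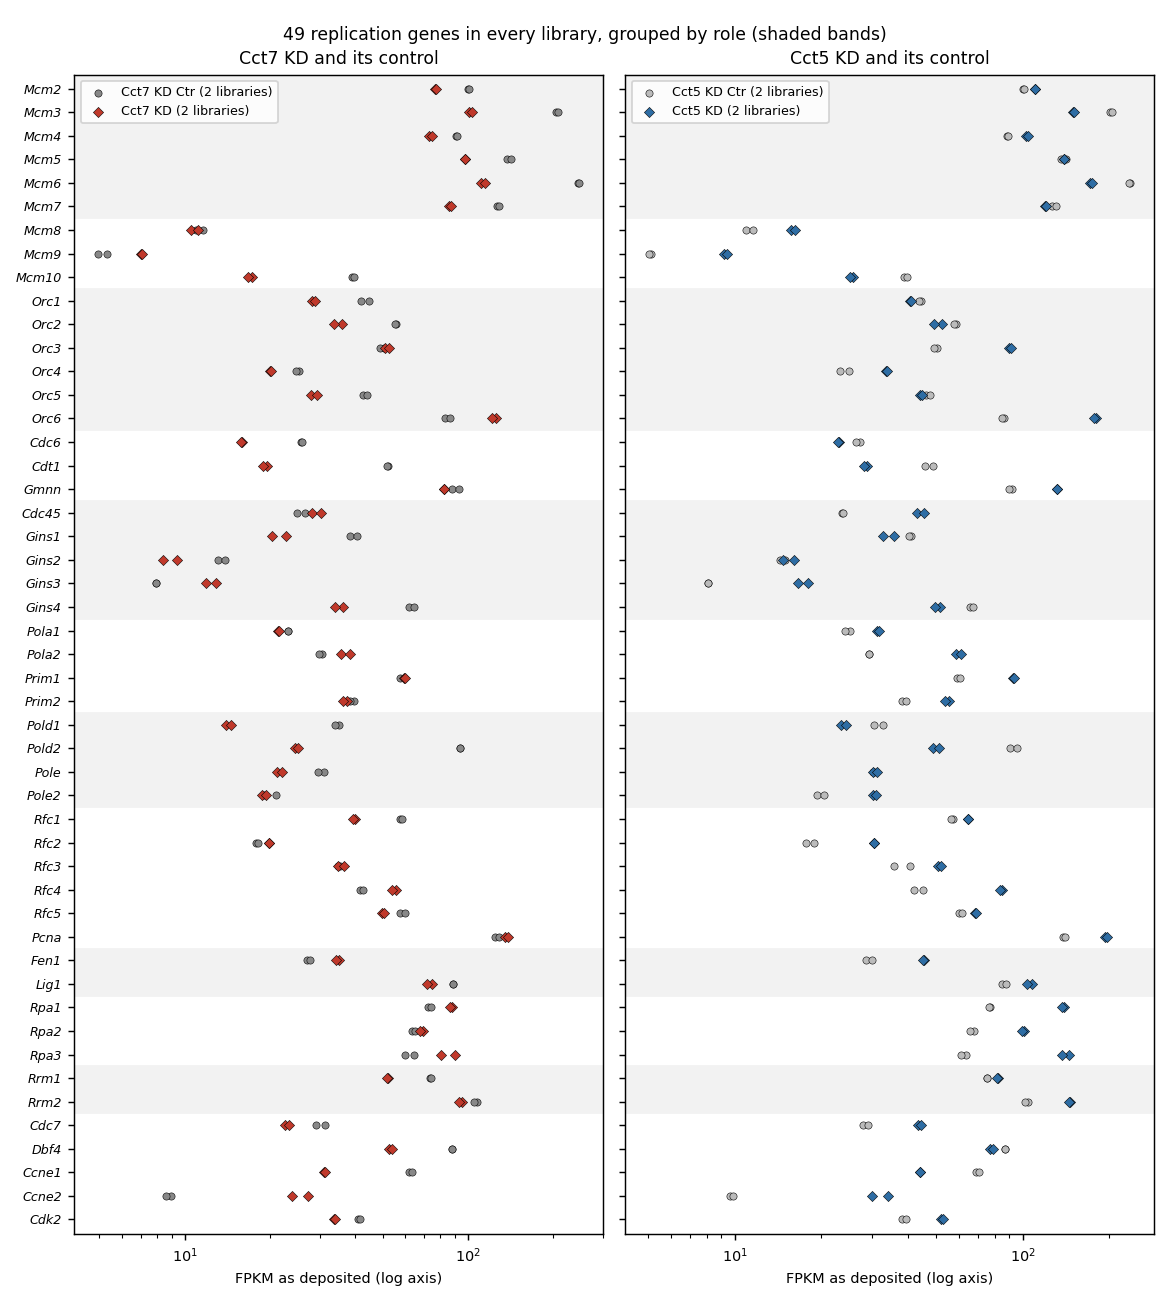
FPKM as deposited (log axis) of each of the 49 replication genes in every library, grouped by role in shaded bands, with Cct7 KD and its control on the left and Cct5 KD and its control on the right. The lowest gene is Mcm9 in every group; Mcm6 is highest in both controls (246 FPKM in Cct7 KD Ctr) and Pcna in both knockdowns (137 in Cct7 KD).

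No member was called between the controls. Between the pairs of control libraries, Cct5 KD Ctr and Cct7 KD Ctr, limma called 0 of 49 members and 0 of 12762 genes (0%), with 12 members and 2296 genes at an unadjusted p under 0.05. Without Cct7 KD Ctr replicate 1 or replicate 2 it called 103 or 19 genes and 0 members. The median of the members differed by 0.0041 on the log2 scale. Single members differed more, such as Cdt1 (-0.13), Pold1 (-0.13), Gins2 (0.11) and Orc5 (0.11), though none of them passed after adjustment. The smallest called changes in Cct7 KD as deposited, such as those of Rpa2, Pcna, Pola1 and Gmnn, are of about that size.

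The helicase ring itself fell in all its subunits under each of the 3 treatments of the values. Mcm6 (ENSMUSG00000026355, chr1:128331590-128359664 on mm10) stood at 245 and 248 FPKM in the controls and at 111 and 115 in Cct7 KD. Mcm3 stood at 204 and 209 against 101 and 103. Both knockdown libraries thus lay at about the same level, far below both controls, and Mcm6 was left with 45.9% and Mcm3 with 49.5% of the control mean. The log2 changes were -1.12 (SE 0.0275, limma adjusted p = 3.12e-06) for Mcm6 and -1.01 (SE 0.0264, limma adjusted p = 3.5e-06) for Mcm3. Mcm2 stood at 100 and 101 FPKM against 76.4 and 77.3, a smaller fall of -0.38 (limma adjusted p = 4.72e-05), again without overlap. The other ring subunits fell by 0.30 (Mcm4), 0.51 (Mcm5) and 0.56 (Mcm7), and the scaled changes of the ring ran from -0.55 in Mcm4 to -1.37 in Mcm6.

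The 2 most abundant ring transcripts thus fell most, and the ring became more even. Mcm6 was the highest and Mcm4 the lowest of the ring in every library, and their ratio, which no scaling of a library can alter, was 2.69 and 2.71 in the controls and 1.53 and 1.54 in Cct7 KD. The coefficient of variation over the 6 subunits was 40.4% and 40.6% against 16.6% and 16.8%. Summed, the ring had 905 and 918 FPKM in the controls and 545 and 555 in Cct7 KD.

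Outside the ring, Mcm10, which links the helicase to polymerase alpha, had 39.1 and 39.6 FPKM in the controls and 17.4 and 16.7 in Cct7 KD, all below the controls. It fell by 1.16 as deposited (SE 0.0342, limma adjusted p = 4.54e-06) and by 1.40 scaled. Mcm8 and Mcm9 form a separate helicase that works in recombination. Mcm9 rose from 5.34 and 4.96 FPKM to 7.04 and 7.05, by 0.39 as deposited and 0.17 scaled, but 1748 bases of its exons lie opposite exons of Asf1a, which also rose, and the sources used here do not say whether counting kept the strands apart. Mcm8 was at 11 and 11.6 against 10.5 and 11.2 FPKM, an overlap, with a change of -0.05 (limma adjusted p = 0.387); its scaled change was -0.28 and passed the test, and the value turned to 0.007 under a common total.

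Among the 6 subunits of ORC, which marks origins, Orc6 alone rose under all 3 treatments of the values in Cct7 KD. Orc6, the smallest and most loosely held subunit (ENSMUSG00000031697, chr8:85299632-85308278), stood at 83.1 and 86.7 FPKM in the controls and at 126 and 122 in Cct7 KD. It rose by 0.54 as deposited (SE 0.0331, limma adjusted p = 4.17e-05) and by 0.29 scaled, with 171 exon bases opposite Vps35. Orc2 stood at 55.9 and 55.3 FPKM against 35.9 and 33.7, so that its knockdown libraries lay below both controls. It fell by 0.66 (SE 0.0385, limma adjusted p = 3.44e-05), with 1150 exon bases opposite Nif3l1. Orc1, Orc4 and Orc5 also fell under all 3 treatments, by 0.59, 0.31 and 0.58 as deposited. Orc3 had 50.5 and 49.1 FPKM against 51.1 and 52.9 and did not pass (limma adjusted p = 0.131); its change of 0.06 turned to -0.19 after scaling. Orc6 made up 27.5% and 28.7% of summed ORC transcript in the controls and 43.5% and 42.5% in Cct7 KD, while the sum was 302.0 and 302.1 against 289 and 287 FPKM.

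Of the factors that bring the ring to ORC, Cdt1 was the most reduced. Cdt1 (ENSMUSG00000006585, chr8:122568015-122573554) had 52.2 and 51.9 FPKM in the controls and 19.6 and 19.0 in Cct7 KD. That is 37.1% of the control mean, with no overlap and a change of -1.39 (SE 0.0316, limma adjusted p = 2.62e-06). Cdc6, the loading ATPase, had 25.8 and 26.0 FPKM against 15.9 and 15.8, also without overlap, and fell by 0.67 (limma adjusted p = 1.8e-05). Gmnn, encoding the Cdt1 inhibitor geminin, stood at 88.1 and 93.1 FPKM against 82.4 and 82.3. Its fall was small, 0.14 as deposited (limma adjusted p = 0.0118), and did not pass under a common total (-0.07, limma adjusted p = 0.0619) or without Cct7 KD replicate 2 (limma adjusted p = 0.0504). The ratio of Cdt1 to Gmnn, free of library scaling, was 0.592 and 0.558 in the controls and 0.238 and 0.230 in Cct7 KD.

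**Figure D2:**
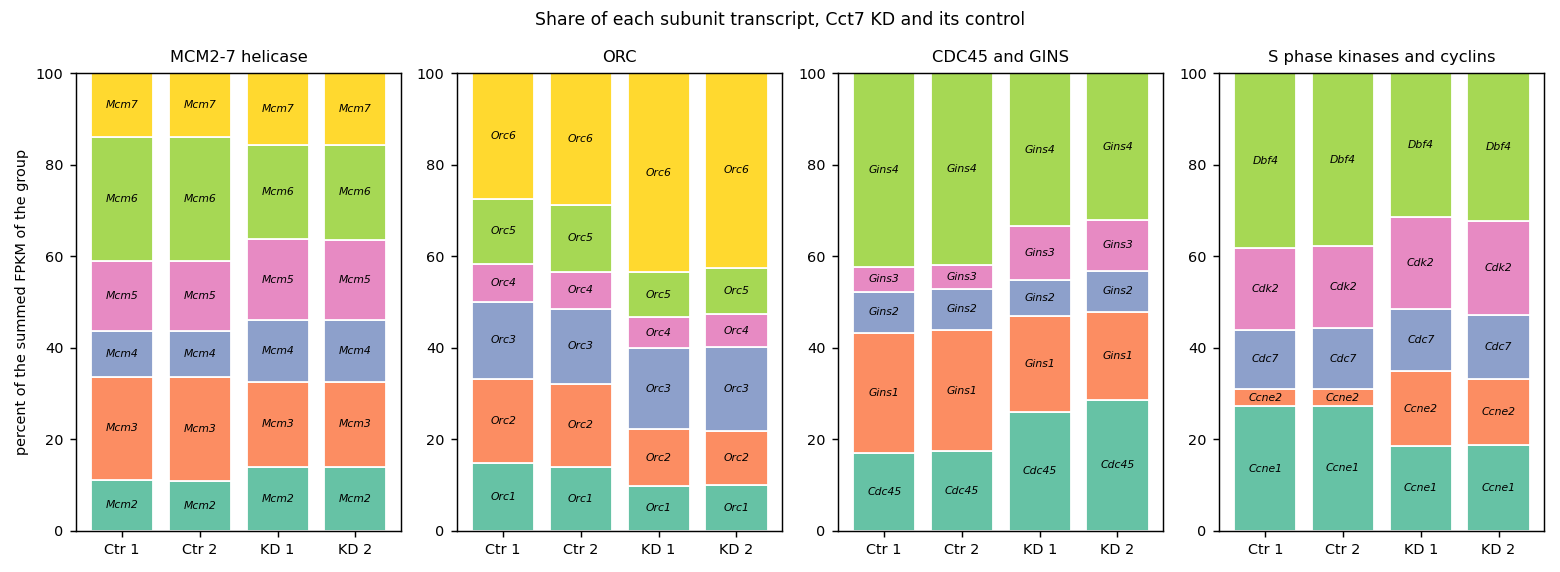
Percent of the summed FPKM of 4 groups of replication genes taken by each subunit (stacked bars, 0 to 100%), in the 2 Cct7 KD Ctr and the 2 Cct7 KD libraries. Orc6 takes 27.5% and 28.7% of ORC in the controls and 43.5% and 42.5% in Cct7 KD, and Ccne2 3.90% and 3.69% of its group against 16.3% and 14.4%.

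Cdc45 and the 4 GINS subunits complete the active helicase, and they split. Gins1 stood at 38.2 and 40.8 FPKM in the controls and at 22.9 and 20.4 in Cct7 KD, and fell by 0.84 (SE 0.0627, limma adjusted p = 8.71e-05). Gins4 stood at 61.9 and 64.4 against 36.2 and 33.9 and fell by 0.83 (SE 0.0421, limma adjusted p = 2.16e-05). In both genes all knockdown values lay below the controls. Gins3, one of the promoters printed above, rose from 7.92 and 7.95 FPKM to 12.9 and 11.9, by 0.58 as deposited (limma adjusted p = 0.000215) and 0.35 scaled. The ratio of Gins3 to Gins4 was 0.128 and 0.124 in the controls and 0.356 and 0.35 in Cct7 KD. Gins2 fell by 0.55, with 2758 exon bases opposite Gse1. Cdc45 rose by 0.17 as deposited (25.0 and 26.7 against 28.2 and 30.2 FPKM), but its scaled change was -0.07 and did not pass (limma adjusted p = 0.23), and the call as deposited was lost without Cct7 KD replicate 2 or Cct7 KD Ctr replicate 1 (limma adjusted p = 0.0973 and 0.0862).

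The polymerases differed by subunit. Outside the 49 members, Pold3 and Pold4 of polymerase delta did not pass as deposited in Cct7 KD. Of polymerase epsilon, Pole3 rose and Pole4 fell. Pold2, the accessory subunit of polymerase delta (ENSMUSG00000020471, chr11:5872180-5878292), had 93.5 and 93.7 FPKM in the controls and 24.5 and 25.2 in Cct7 KD. This was the largest fall of the 49 members, to 26.5% of the control mean and by 1.87 on the log2 scale (SE 0.0285, limma adjusted p = 1.16e-06), with a scaled change of -2.12. Pold1, its catalytic subunit, had 35.1 and 34.1 FPKM against 14.0 and 14.6, likewise without overlap, and fell by 1.22 (SE 0.0386, limma adjusted p = 5.43e-06). In polymerase epsilon, which copies the leading strand, the catalytic Pole fell by 0.46, while Pole2 overlapped its controls (19.1 and 21 against 18.8 and 19.3 FPKM) and passed only after scaling (-0.31). The ratio of Pold2 to Pole2, a pair across different polymerases, was 4.90 and 4.47 in the controls and 1.30 in both Cct7 KD libraries.

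Polymerase alpha-primase, which lays down the primers, changed little. Pola2, its regulatory subunit, stood at 30.5 and 29.8 FPKM in the controls and at 35.6 and 38.3 in Cct7 KD, above both. The rise of 0.28 as deposited (limma adjusted p = 0.00159) was 0.04 after scaling and did not pass (limma adjusted p = 0.393). Prim1 and Prim2, the primase subunits, did not pass as deposited (0.03 and -0.08) and were lower after scaling (-0.22 and -0.32). Pola1 fell by 0.11 as deposited and 0.35 scaled, but did not pass under a common total (-0.05, limma adjusted p = 0.219) or when any one of the 4 libraries was left out (limma adjusted p from 0.0665 to 0.0784).

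The clamp PCNA and its loader RFC showed no common direction as deposited. Rfc1, the large subunit, stood at 57.4 and 58.3 FPKM in the controls and at 40.1 and 39.2 in Cct7 KD, below both, and fell by 0.53 (SE 0.0282, limma adjusted p = 2.47e-05). Rfc4 rose under all 3 treatments, by 0.38 as deposited and 0.13 scaled, and Rfc5 fell, by 0.22 and 0.47. Rfc4 has 194 exon bases opposite Eif4a2, and Rfc5 has 499 opposite Wsb2. Rfc2 and Rfc3 had 0.13 and 0.02 as deposited and -0.10 and -0.22 scaled, so their direction depends on the scaling. Rfc3 overlapped its controls, and Rfc2, which has 952 exon bases opposite Lat2, did not pass without Cct7 KD replicate 1, Cct7 KD replicate 2 or Cct7 KD Ctr replicate 1 (limma adjusted p from 0.0511 to 0.059).

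Pcna stood at 125 and 129 FPKM in the controls and at 136 and 138 in Cct7 KD. The libraries did not overlap, yet the change was 0.11 as deposited (limma adjusted p = 0.0153) and -0.14 scaled. Without Cct7 KD replicate 2 or Cct7 KD Ctr replicate 1 it did not pass (limma adjusted p = 0.0882 and 0.0562). Pcna has processed pseudogenes, and the sources used here do not say how reads shared with them were counted.

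On the lagging strand, Fen1 cuts the flaps of Okazaki fragments and Lig1 seals them. Fen1 stood at 27.0 and 27.7 FPKM in the controls and at 35.1 and 34.3 in Cct7 KD, above both. It rose by 0.33 as deposited (SE 0.0318, limma adjusted p = 0.00023) but did not pass scaled (0.09, limma adjusted p = 0.0507), and 1909 of its exon bases lie opposite Gm10143. Lig1 fell by 0.27 as deposited and 0.52 scaled.

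Of the single-strand binding protein RPA, the smallest subunit Rpa3 rose under all 3 treatments, by 0.45 as deposited and 0.20 scaled. Rpa1, the large subunit that binds DNA, stood at 72.6 and 74.2 FPKM in the controls and at 87.7 and 86.3 in Cct7 KD. All knockdown values were above the controls, and the rise of 0.24 as deposited (limma adjusted p = 0.000433) became -0.006 after scaling (limma adjusted p = 0.855). Rpa2 rose by 0.09 as deposited and fell by 0.15 scaled; without Cct7 KD replicate 1 or Cct7 KD Ctr replicate 1 it did not pass (limma adjusted p = 0.146 and 0.111).

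Ribonucleotide reductase makes the deoxynucleotides. Rrm1, its large subunit, stood at 73.8 and 74.4 FPKM in the controls and at 52.4 and 51.7 in Cct7 KD, below both, and fell by 0.50 (SE 0.0258, limma adjusted p = 2.27e-05). Rrm2, the small subunit made in S phase, fell by 0.17 as deposited and 0.42 scaled.

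The 2 cyclins E moved in opposite directions. Ccne1 (ENSMUSG00000002068, chr7:38097984-38107534) stood at 62.2 and 63.6 FPKM in the controls and at 31.0 and 31.3 in Cct7 KD. It was left with 49.5% of the control mean and fell by 0.99 (SE 0.0283, limma adjusted p = 4.22e-06). Ccne2 (ENSMUSG00000028212, chr4:11191351-11204779) stood at 8.93 and 8.62 FPKM against 27.3 and 24.0, which is 292% of the control mean, and rose by 1.44 (SE 0.0664, limma adjusted p = 1.58e-05). No knockdown library overlapped a control in either gene, and the scaled changes were -1.24 and 1.21. The ratio of Ccne1 to Ccne2 was 6.97 and 7.38 in the controls and 1.14 and 1.31 in Cct7 KD. Of the Ccne2 exons, 609 bases lie opposite Ints8. Cdk2, the partner kinase of both, fell by 0.28 as deposited and 0.53 scaled.

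Cdc7 and its activator Dbf4 form the other S phase kinase. Dbf4 stood at 87.6 and 88.2 FPKM in the controls and at 52.6 and 53.9 in Cct7 KD, below both, and fell by 0.71 (SE 0.0269, limma adjusted p = 8.55e-06). Cdc7 fell less, by 0.38.

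**Figure D3:**
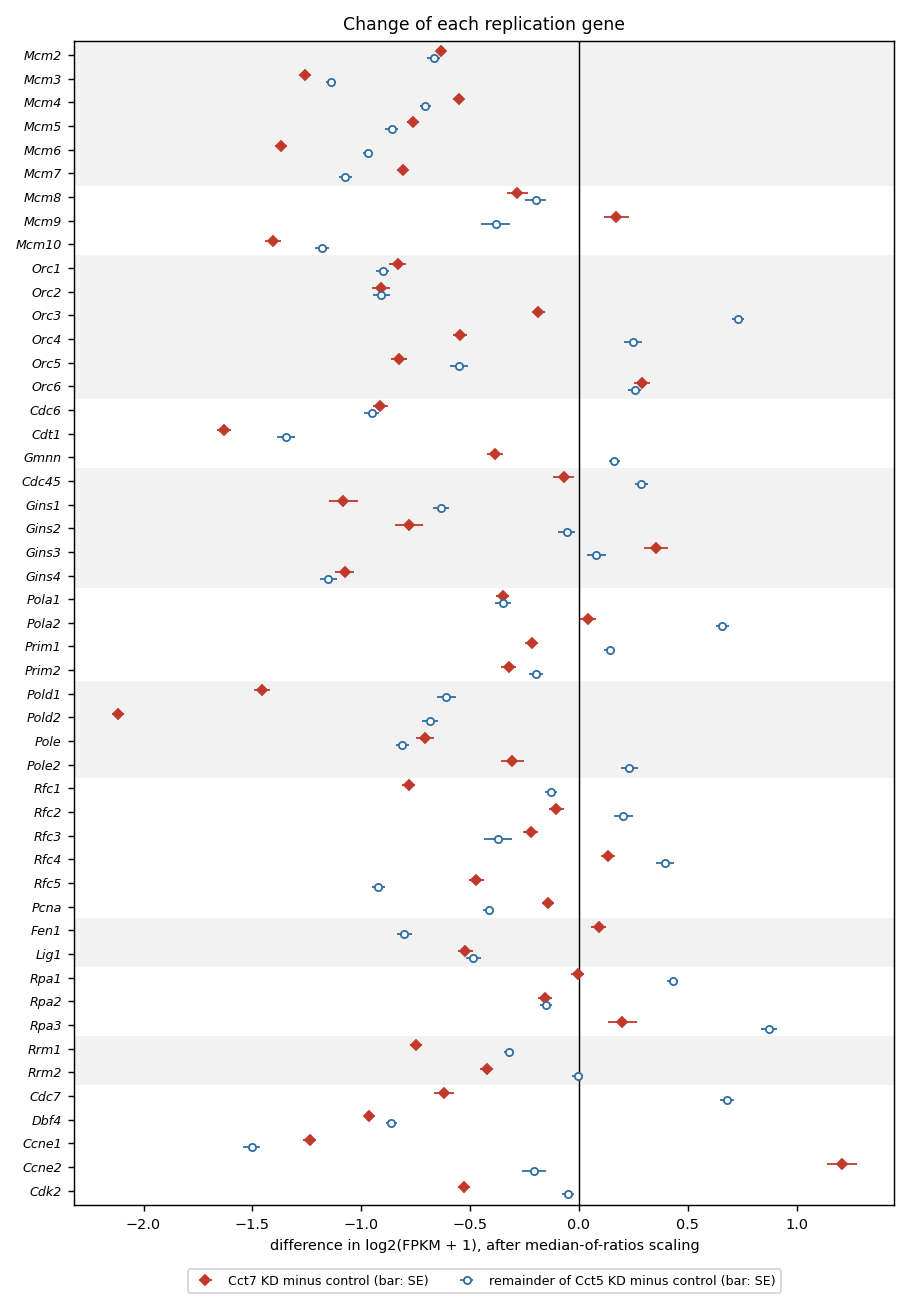
Difference from the own control in log2(FPKM + 1) after median-of-ratios scaling (bars: SE) for each of the 49 genes, in Cct7 KD (filled) and in the remainder of Cct5 KD (open). Pold2 lies farthest left in Cct7 KD (-2.12) and Ccne2 farthest right (1.21), while in the remainder Ccne1 is lowest (-1.5) and Rpa3 highest (0.87).

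In Cct5 KD the direction of most members depends on how the libraries are made comparable. As deposited, 31 of 49 members were higher, 15 lower and 3 did not pass, beside 78% and 11.3% of 14179 genes, and the medians were 0.33 and 0.68. A rise of at least 2-fold passed for 5 members and a fall of that size for 0, beside 31.2% and 2.17% of genes. After scaling 6 rose and 38 fell, beside 37.7% and 43.7% of 14031 genes, with medians of -0.47 and -0.05. Both sets of values contain the Cct7 KD part. In the remainder, 32 members fell, 13 rose and 4 did not pass, beside 43.3% and 41.6% of 11701 genes, and the medians were -0.37 and -0.01. Falls of at least 2-fold in the remainder passed for 6 members and rises for 0, beside 9.32% and 8.27% of genes. The remainder is a computed difference of unknown origin and no deposited library. It cannot be taken as an independent second knockdown, and its p-values hold only for the values so computed. With that limit, the 2 knockdowns are given side by side from here, each against its own control.

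All 6 ring subunits fell in the remainder, from -0.67 in Mcm2 to -1.14 in Mcm3 (limma adjusted p = 2.7e-07), with Mcm6 at -0.97 and Mcm7 at -1.07. As deposited, Mcm6 had 237 and 235 FPKM in Cct5 KD Ctr and 172 and 175 in Cct5 KD, below both controls. Mcm2 had 100 and 101 against 111 and 111, above both, so its direction as deposited (0.13) is the opposite of that after either scaling and in the remainder. The ratio of Mcm6 to Mcm4 was 2.68 and 2.64 in these controls and 2.23 and 2.22 in the remainder, beside 1.53 and 1.54 in Cct7 KD. Mcm10 fell by 1.18 in the remainder.

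Cdt1, Cdc6 and Ccne1 were lower in the remainder as well, by 1.35, 0.95 and 1.5 (limma adjusted p = 8.26e-07, 1.6e-06 and 4.87e-07). Ccne1 stood at 69.1 and 70.5 FPKM in Cct5 KD Ctr and at 44.2 and 44.1 in Cct5 KD, and Cdt1 at 45.7 and 49 against 28.8 and 28.2. For both, the knockdown libraries lay below the controls in these unscaled values, which contain the Cct7 KD part and are no separate evidence. Dbf4, Gins4 and Orc2 fell by 0.86, 1.15 and 0.91 in the remainder, and Orc6 rose by 0.26. Orc4 also rose there, by 0.25, beside a scaled change of -0.55 in Cct7 KD.

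Other members had another order in the remainder than in Cct7 KD; the differences between the 2 were not tested. Pold2 was at -0.68 and Pold1 at -0.61, beside -2.12 and -1.46 in Cct7 KD. Cdc7 was at 0.68 beside -0.62, Orc3 at 0.73 beside -0.19, and Fen1 at -0.80 beside 0.09. Pola2 and Rpa3 rose by 0.66 and 0.87, beside 0.04 and 0.20. The remainder had 17.9 and 18 FPKM of Cdc7 beside 18.2 and 18.1 of Dbf4, a ratio of 0.985 and 0.994, where Cct5 KD Ctr had 0.321 and 0.335 and Cct7 KD 0.431 and 0.435.

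Ccne2 differed in direction between the deposited values and the remainder. As deposited it stood at 9.63 and 9.89 FPKM in Cct5 KD Ctr and at 34 and 30.005 in Cct5 KD, far above both controls, with a change of 1.61 (limma adjusted p = 3.05e-06). Its remainder was 3.34 and 3.01 FPKM, a scaled change of -0.21 (limma adjusted p = 0.0142). The ratio of Ccne1 to Ccne2 was 7.17 and 7.13 in these controls and 2.80 and 2.92 in the remainder.

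**Figure D4:**
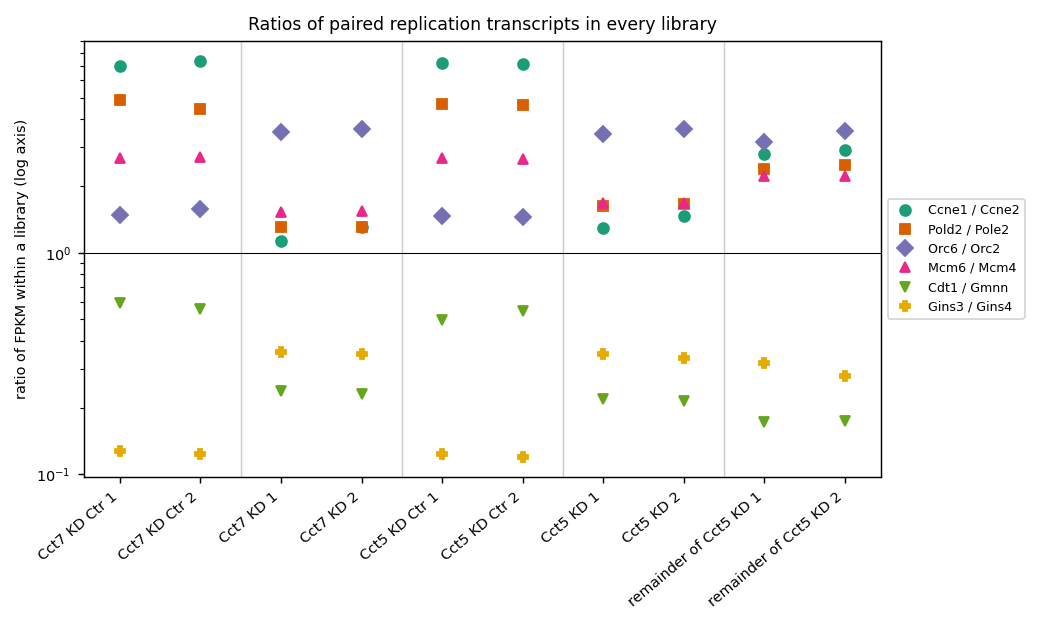
Ratio of FPKM of 6 pairs of replication transcripts within each library (log axis), in the 4 groups and in the remainder of Cct5 KD. Ccne1 to Ccne2 lies between 6.97 and 7.38 in the 4 control libraries, at 1.14 and 1.31 in Cct7 KD, and at 2.80 and 2.92 in the remainder.

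The genes around the replication machinery, in lists fixed by role, are given for Cct7 KD as deposited and then scaled. Of all genes 49.3% rose and 32% fell as deposited, and 37.1% rose and 44% fell scaled, and each count is to be read beside these shares. Of the 13 E2F and RB family genes, 5 rose and 5 fell, and 4 rose and 7 fell after scaling, which is near the shares over all genes. The repressor E2f8 was left with 35.8% of its control mean (11.7 ± 0.0342 to 4.19 ± 0.232 FPKM, SD, n = 2). E2f6, another repressor, rose to 238% and Rb1, which holds E2F in check, to 189%, with log2 changes of 1.16 and 0.85. Among the 14 tested of 16 other cyclins, CDKs and CDK inhibitors, 6 rose and 4 fell, then 5 rose and 7 fell. The CDK inhibitors Cdkn1a (p21) and Cdkn2d (p19) rose to 182% and 314% of the control mean, and Ccnd1 (cyclin D1) fell to 30.9%. In the remainder the changes were 1.23, 2.16 and -2.81.

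Of 12 fork protection and S phase checkpoint genes, 8 fell and 1 rose (all genes 32% and 49.3%), and 11 fell and 0 rose after scaling (44% and 37.1%), among them the checkpoint kinase Chek1 (62.6% of the control mean), Rad9a (46.2%), part of a clamp at damaged forks, and Etaa1 (56.1%), an activator of the kinase ATR. In the remainder 10 of the 12 fell, beside 43.3% of all genes. Of 5 tested genes of alternative clamp loaders and cohesion establishment, 4 fell and 1 rose, then 4 fell and 0 rose; Esco2, which acetylates cohesin in S phase, had 115 ± 0.517 FPKM in the controls and 38.7 ± 0.788 in Cct7 KD (SD, n = 2). Atad5, which unloads PCNA, fell to 63.8% and Chtf18, of the clamp loader for cohesion, to 69.5%. Of these 5 genes 3 fell and 0 rose in the remainder. Of the 15 tested nucleotide supply genes 8 fell and 5 rose, then 11 fell and 2 rose, and in the remainder 13 fell (all genes 43.3%). Dctd, the deoxycytidylate deaminase, was left with 33.1%, Cad, which starts pyrimidine synthesis, with 51.7%, and Impdh2, of guanine nucleotide synthesis, with 65.0% of the control mean.

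The 19 remaining polymerase subunits and replication factors split into 9 that fell and 6 that rose, then 13 and 4, beside 32% and 49.3%, then 44% and 37.1%, of all genes. Top2a, the topoisomerase of dividing cells, fell to 47.6%, Pole4, a small subunit of polymerase epsilon, to 47.3% and Ctc1, which aids polymerase alpha at telomeres, to 41.0% of the control mean. Of 13 genes of replication-coupled chromatin assembly, 6 fell and 6 rose, then 7 and 2, which is no result about the list beside 32% and 49.3%, then 44% and 37.1%, of all genes; the histone chaperone Nasp fell to 51.5%, and Slbp, which binds histone mRNA, rose to 193%. Asf1a rose to 156%. Of 9 genes that control Cdt1 and relicensing, 4 fell and 3 rose, then 6 and 2. Dtl, the adaptor that sends Cdt1 to destruction, fell to 41.5%, Fbxo5, an inhibitor of the anaphase promoting complex, to 45.4%, and Fbxw7, whose ligase removes cyclin E, rose to 252% (7.57 ± 0.023 to 19.1 ± 0.465 FPKM, SD, n = 2).

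The fall was not limited to S phase genes. Of 20 G2 and M phase genes 15 fell and 3 rose as deposited (all genes 32% and 49.3%), then 17 and 1 (44% and 37.1%). Mybl2 is in this list as a regulator of late cell cycle genes, not by the timing of its own transcript. It had 176 ± 2.87 FPKM in the controls and 34.4 ± 0.0972 in Cct7 KD (SD, n = 2), a log2 change of -2.33 (limma adjusted p = 7.78e-07). The mitotic kinase Aurka and the checkpoint protein Bub1b were left with 49.4% and 57.0%. The scaled median of this list was -0.68, beside -0.53 for the 49 replication genes and -0.07 for all genes. In the remainder 14 of the 20 fell and 6 rose, beside 43.3% and 41.6% of all genes. The median there was -0.26, beside -0.37 for the 49 replication genes.

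**Figure D5:**
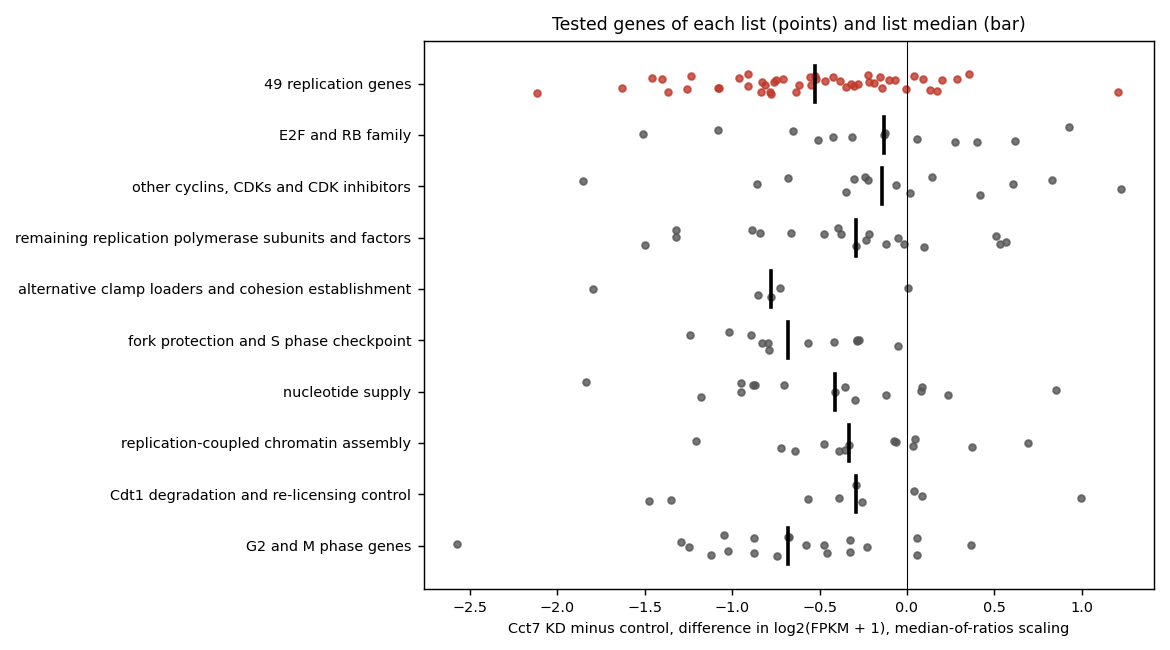
Scaled change in Cct7 KD, as a difference in log2(FPKM + 1), of each tested gene (points) and the median (bar) of the 49 replication genes and of 9 lists around them. The bars lie at -0.53 for the replication genes, -0.13 for the E2F and RB family, -0.68 for checkpoint genes and -0.68 for G2 and M phase genes.

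Members with and without the E2F letters in their promoter overlapped widely in Cct7 KD. The 16 members with the letters had scaled changes from -1.63 to 0.35 with a median of -0.65, and the 24 without had changes from -2.12 to 0.29 with a median of -0.45. Cdt1, Mcm6 and Pold1 were among the former and Pold2, Mcm10 and Ccne1 among the latter. Members without a promoter window are in neither group, among them Ccne2, which rose most, and Gins1 and Gins4, which fell. These letters are a description of the windows and mark no binding measured here.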

How the data were processed

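Each knockdown shares 1 table of FPKM, as the authors deposited it, with its control libraries; per the submitters' processing notes HTSeq and mm10 were used. Per the labels' protocols, the poly(A) libraries were strand-specific and read as 150 bp pairs. The sources used here do not give the aligner, versions, annotation or use of strand in counting. The tables held 21055 (Cct5) and 20909 (Cct7) entries; 8 and 6 repeated IDs were left out. Symbols came from GENCODE on GRCm38, and 41 shared IDs had none. Fragment totals were estimated from the steps of low values, within 0.05 of a fragment; 1 fragment on 1 kb equals 0.0183 to 0.0530 FPKM.

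The members and lists were chosen with earlier results of these data known. FPKM are not counts, so each knockdown was compared with its control by limma 3.58.1 (trend, two-sided) in R 4.3.3 on log2(FPKM + 1), a scale that understates changes of low genes. Genes had to average 1 FPKM or more to be tested, with Benjamini-Hochberg adjustment over all of them, and all 49 members passed that filter. The remainder is Cct5 KD minus 1.125 times Cct7 KD of the same number, the most common ratio of the 2. For 15 genes it was negative and these were left out there. Values by library are given for the 12 members with the largest scaled change in Cct7 KD, the member with the smallest p of each role group, and Pcna, Mcm2 and Gmnn; those of other members were chosen after their values were seen. From each other list the 3 genes with the smallest p are named, and Pold3, Pold4 and Pole3 besides. The pairs of genes given as ratios were not part of the planned comparisons. On simulated data, limma called 36%, 70%, 94% and 98% of planted log2 changes of 0.25, 0.5, 1 and 2 in the Cct7 design of 12558 genes, with 1 false call. In the Cct5 design of 12640 genes it made 5 false calls. Only 50 changes of each size were planted, all in better expressed genes, whereas 81.4% of genes were called in the real Cct7 KD fit. The simulated shares therefore do not give the sensitivity of the real fits. Other scalings, filters, pseudocounts, a replicate block, 1 fit of all libraries and leaving out each library were tried.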

Additional observations from a re-analysis of the deposited data

How the results depend on the processing

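The direction of some members depends on the scaling. In Cct7 KD, median-of-ratios scaling turned Orc3 (-0.19), Cdc45 (-0.070), Prim1 (-0.22), Rfc2 (-0.10), Rfc3 (-0.22), Pcna (-0.14), Rpa1 (-0.0060) and Rpa2 (-0.15) negative and left 6 members higher; a common total turned Mcm8 to 0.0067, and leaving out 1 library at a time moved Rfc3 between -0.0082 (without Cct7 KD replicate 2) and 0.054. In Cct5 KD, 24 of the 49 members changed from positive to negative under median-of-ratios scaling, 18 under a common total and 20 in the remainder, with deposited changes of up to 0.71, 0.53 and 1.61. Among the 21 members given by library, median-of-ratios scaling turned Rfc1 (-0.63), Fen1 (-0.20), Rrm1 (-0.70), Pcna (-0.35), Mcm2 (-0.69) and Gmnn (-0.29), a common total Rfc1 (-0.40), Rrm1 (-0.46), Pcna (-0.11), Mcm2 (-0.45) and Gmnn (-0.050), and the remainder Ccne2 (-0.21), Rfc1 (-0.13), Fen1 (-0.80), Rrm1 (-0.32), Pcna (-0.41) and Mcm2 (-0.67). Beyond the scaling itself, the cause was not tested.

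In Cct5 KD, genes called higher numbered 5286 by median of ratios, 7120 by common total and 4871 in the remainder. Genes called lower numbered 6127, 4491 and 5061, of 14031, 14125 and 11701 tested. Members called higher numbered 6, 11 and 13, beside 37.7%, 50.4% and 41.6% of all genes. Members called lower numbered 38, 29 and 32, beside 43.7%, 31.8% and 43.3% of all genes. A fold of at least 2 left 2734 genes in Cct7 KD (1837 higher, 897 lower) with 7 members (1 higher, 6 lower), and 4724 genes in Cct5 KD (4417 higher, 307 lower) with 5 members (5 higher, 0 lower). Between the controls a common total, added after seeing the data, called 20 genes (6 higher, 14 lower) and 0 members.

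Leaving out 1 library at a time gave 10225 to 10781 genes in Cct7 KD (6076 to 6624 higher, 4021 to 4159 lower) with 38 to 42 members (9 to 13 higher, 28 to 29 lower), and 12059 to 12468 in Cct5 KD (10474 to 11039 higher, 1407 to 1585 lower) with 43 to 46 members (31 higher, 12 to 15 lower). Between the controls it gave 0 to 103 genes (0 to 23 higher, 0 to 80 lower) and 0 members, with 103 without Cct7 KD Ctr replicate 1 and 19 without Cct7 KD Ctr replicate 2. In these fits a lone library is assumed to vary like the other group.

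No pairing of knockdown and control libraries by replicate number was seen: deviations of same-numbered libraries correlated at -0.04 in Cct7 KD and -0.01 in Cct5 KD. With 2 libraries a group, this cannot exclude a shared batch or culture. A replicate block gave 10968 genes and 42 members (12 higher, 30 lower) in Cct7 KD, where Rpa2 no longer passed (limma adjusted p = 0.0527), and 12740 genes and 46 members in Cct5 KD. Without the filter, with a pseudocount of 0.1, or with all 8 libraries in 1 fit, each of the 76 genes named for Cct7 KD and 21 for Cct5 KD kept its direction and its side of the threshold. With 2 libraries a group, small changes were often missed in the simulated data.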
